A study of Mus musculus with 6 samples.

Results

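The 10 genes described here encode the ligands of transforming growth factor beta (Tgfb1, Tgfb2 and Tgfb3), its receptors (Tgfbr1, Tgfbr2 and Tgfbr3) and the Smad proteins that carry the signal (Smad2, Smad3, Smad4 and Smad7). They are 10 of the 22535 gene rows in the deposited table. They were chosen by gene symbol, when the levels and fold changes of sgNDUFS4 against sgControl were already known. Their values in that comparison are therefore given as a description, without p-values. All samples were B16-BL6, a mouse melanoma line, grown in DMEM with serum, pyruvate and antibiotics. In 3 libraries the cells carried a control guide RNA (sgControl), and in 3 libraries a guide against Ndufs4, a subunit of mitochondrial complex I (sgNDUFS4). Polyadenylated RNA was sequenced to ask which transcripts differ in the sgNdufs4 line, whose immunogenicity the study set out to explain. The labels do not say whether a line is a clone or a pool, or whether the replicates are separate cultures, so the spread between libraries may be technical.

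TGF-beta ligands are secreted as latent dimers, held inactive by their own propeptide and by binding proteins in the matrix until integrins, thrombospondin or proteases release them. The active ligand brings the type II receptor Tgfbr2 together with the type I receptor Tgfbr1, which phosphorylates Smad2 and Smad3. These bind Smad4, enter the nucleus and switch genes on or off, among them inhibitors of the pathway such as Smad7. In melanoma the pathway is known for slowing the growth of melanocytes, for matrix production and invasion, and for restraining T cells around a tumour.

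Between 20090607 and 25947374 reads per library fell in genes, and levels are given as CPM, the reads of a gene scaled to this total. Ndufs4 was at 54.3, 55.0 and 52.4 CPM in sgControl and at 14.99, 15.98 and 16.8 CPM in sgNDUFS4. The 6 markers of the melanocyte lineage were all expressed, with summed levels of 15377 to 15893 CPM in sgControl and 14505 to 15529 CPM in sgNDUFS4. Each of them was called, Pmel and Mitf higher and Mlana, Dct, Tyrp1 and Sox10 lower, where 52.0% of all genes tested were called. Their ratios of means ran from 0.747 for Mlana to 1.26 for Pmel. With the median log2 fold change of the nearest tested genes subtracted, Sox10 was called higher, at 0.077. Mitf then did not pass, at 0.030, while Pmel, Mlana, Dct and Tyrp1 kept their direction and call. The part of these 6 markers in the results below was not tested. Of the 6 fibroblast markers Dcn, Lum and Thy1 had no read in any library and Col3a1 had reads in 1, while Col1a1 was at 6.39 to 11.3 CPM and Pdgfra at 2.33 to 3.70 CPM. The sum of the 6 was 9.47 to 14.1 CPM in sgControl and 9.80 to 11.3 CPM in sgNDUFS4. None of the 5 endothelial markers had a read. The 6 immune markers summed to between 0.617 and 3.95 CPM. In bulk RNA, a change in the number of expressing cells and a change in RNA per cell cannot be told apart.

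Among the ligands Tgfb2 was more than doubled and Tgfb3 was lower. Among the receptors the largest difference was that of Tgfbr2, with overlapping groups. Among the Smads the signal-carrying Smad3 was higher. The inhibitory Smad7 was also called higher, but its groups overlapped and its call was lost in 5 of 16 alternatives. All 10 members had a mean of at least 1 CPM, the minimum for the test across all genes, in each group. In that test (limma on log2(CPM + 0.5), Benjamini-Hochberg adjusted p under 0.05) 5 members were called higher and 1 lower, and 4 did not pass. Of all 11063 genes tested, 52.0% were called, 31.8% higher and 20.3% lower. The 2 groups of libraries did not overlap for 4 of the 10 members, as for 57.2% of all genes tested. The median log2 fold change was 0.12 over the members and 0.06 over all genes tested. With so many genes called, these counts say nothing particular about the members. After TMM scaling 49.2% of all calls were higher in place of 61.1%.

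**Figure D1:**
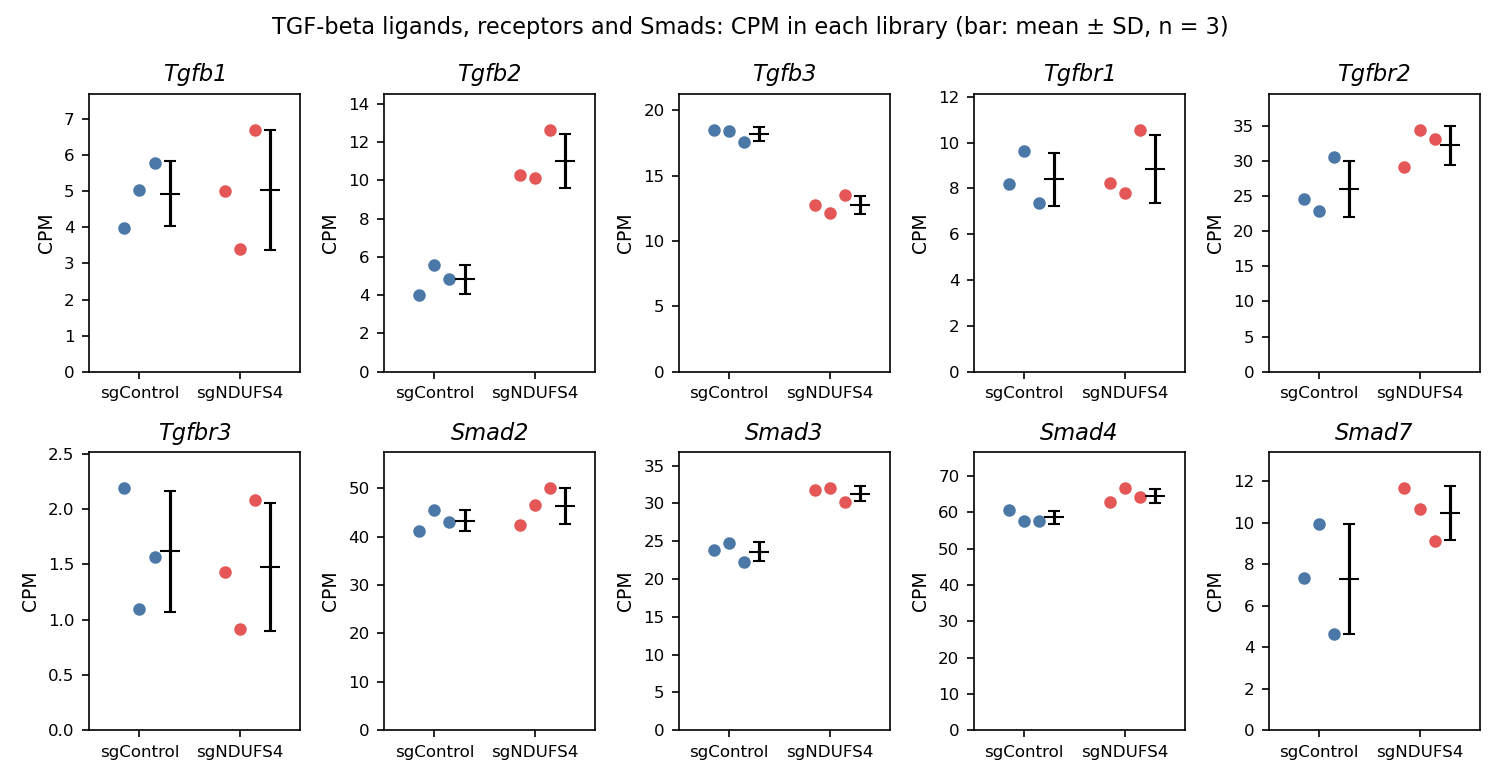
CPM of the 10 members in each library, in a panel per gene with its own scale from 0. Points are libraries (blue, sgControl; red, sgNDUFS4) and bars give the mean ± SD (n = 3 per group). The groups are apart for Tgfb2, Tgfb3, Smad3 and Smad4 and overlap for the other 6 genes.

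Tgfb2 (ENSMUSG00000039239.14, chromosome 1, 186622792 to 186705989, minus strand, GRCm38) encodes the ligand isoform that needs the co-receptor Tgfbr3 for efficient binding to Tgfbr2. It was at 4.03, 5.58 and 4.85 CPM in sgControl, from 81, 132 and 108 reads. In sgNDUFS4 it was at 10.3, 10.1 and 12.6 CPM, from 266, 242 and 328 reads. Every sgNDUFS4 library was thus above every sgControl library, and the gap between the groups was larger than the range within either. The means were 4.82 ± 0.775 and 11.0 ± 1.41 CPM (SD, n = 3 each), a ratio of 2.29 and a log2 fold change of 1.12 (SE 0.151) on the log2(CPM + 0.5) scale. Its 50 nearest tested neighbours on chromosome 1 had a median log2 fold change of -0.07. A predicted antisense gene, Gm29491, covers 2.1% of its exon bases, and the reads carry no strand.

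The sequence before the start of Tgfb2 is shown because this gene changed most, and that of Tgfb1 because its level did not separate the groups. Both are the 250 bases before the RefSeq start (GRCm38.p6), at chr1:186705990-186706239 on the minus strand and chr7:25686752-25687001 on the plus strand. Capitals mark matches, on either strand, to the core of the cyclic AMP response element (TGACG, which reads CGTCA where it lies on the other strand), the E-box CACGTG, the Smad box CAGAC and the TATA box TATAAA.
Tgfb2: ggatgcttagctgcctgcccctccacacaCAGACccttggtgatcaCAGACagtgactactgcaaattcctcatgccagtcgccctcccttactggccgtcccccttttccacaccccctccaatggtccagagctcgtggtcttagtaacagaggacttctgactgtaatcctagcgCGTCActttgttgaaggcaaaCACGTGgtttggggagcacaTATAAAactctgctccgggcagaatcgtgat
Tgfb1: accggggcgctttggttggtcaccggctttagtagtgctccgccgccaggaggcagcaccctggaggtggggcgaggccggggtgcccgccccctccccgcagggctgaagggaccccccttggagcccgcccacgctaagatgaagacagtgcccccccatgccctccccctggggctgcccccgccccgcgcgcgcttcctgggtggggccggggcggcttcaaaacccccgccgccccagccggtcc

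The Tgfb2 window held a TATA box that ends 25 bases before the start, an E-box that ends 45 bases before it, a TGACG core that ends 67 bases before it, and 2 Smad boxes further upstream. Of 32851 such windows in RefSeq, 12.4% held TATAAA, 6.02% CACGTG, 17.8% TGACG and 42.2% CAGAC. The Tgfb1 window held none of these 4 motifs. It held 5 GC boxes (GGGCGG), found in 32.7% of windows, and Tgfb2 held 0. Neither held the full element TGACGTCA. The windows differ in base composition, with 53.6% G and C for Tgfb2 and 75.2% for Tgfb1. These matches describe letters only, since binding was not measured. Of the 7 members whose windows could be used, 5 had one in the table. The window of Smad3, which was called higher, also held none of the 4 motifs. It held 2 GC boxes, with 69.2% G and C. That of Tgfbr2 held 1 Smad box and none of the others. The first window of Tgfbr1 held none of the 4, and its second held 1 Smad box. Whether these motifs relate to the level of a member was not tested.

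Tgfb3 (ENSMUSG00000021253.7, chromosome 12, 86056745 to 86079041, minus strand), the ligand isoform known for palate fusion and wound repair, differed in the other direction. It was at 18.5, 18.4 and 17.6 CPM in sgControl and at 12.7, 12.1 and 13.5 CPM in sgNDUFS4. No sgNDUFS4 library reached the lowest sgControl library. The means were 18.2 ± 0.534 and 12.8 ± 0.681 CPM (SD, n = 3 each), a ratio of 0.704 and a log2 fold change of -0.49 (SE 0.102). Its 50 nearest tested neighbours had a median of -0.10, and 2 predicted transcripts on the opposite strand overlap its exons, the larger over 7.6% of the bases.

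Tgfb1 (ENSMUSG00000002603.15, chromosome 7, 25687002 to 25705077, plus strand), the isoform best known for restraining lymphocytes, did not separate the groups. It was at 3.98, 5.03 and 5.79 CPM in sgControl and at 5.00, 3.39 and 6.71 CPM in sgNDUFS4, where both the lowest and the highest library of all 6 were found. Its log2 fold change was -0.01 (SE 0.20), and it changed sign when single libraries were left out.

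To compare genes with each other, CPM was divided by the length of all annotated exons in kb. Which transcripts of a gene were expressed was not determined, so shares and orders per kb depend on this length. On this scale Tgfb3 was the most abundant ligand in every library, as it was by CPM. In sgControl Tgfb3 made up 78.6%, 73.5% and 72.3% of the summed ligand level, and in sgNDUFS4 57.6%, 59.7% and 53.2%. Tgfb2 made up 10.0%, 13.0% and 11.7% in sgControl and 27.2%, 29.1% and 29.1% in sgNDUFS4. The share of Tgfb1 overlapped between the groups, at 11.3% to 16.01% and 11.2% to 17.7%.

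The ratio of Tgfb2 to Tgfb3 within a library does not depend on how libraries are scaled to each other. Per kb it was 0.127, 0.177 and 0.161 in sgControl and 0.472, 0.487 and 0.547 in sgNDUFS4. The summed level of the 3 ligands did not separate the groups, at 7.18 ± 0.226 CPM per kb in sgControl and 6.68 ± 0.758 CPM per kb in sgNDUFS4 (SD, n = 3 each). The mixture of ligand transcripts thus differed while their sum overlapped between groups.

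**Figure D2:**
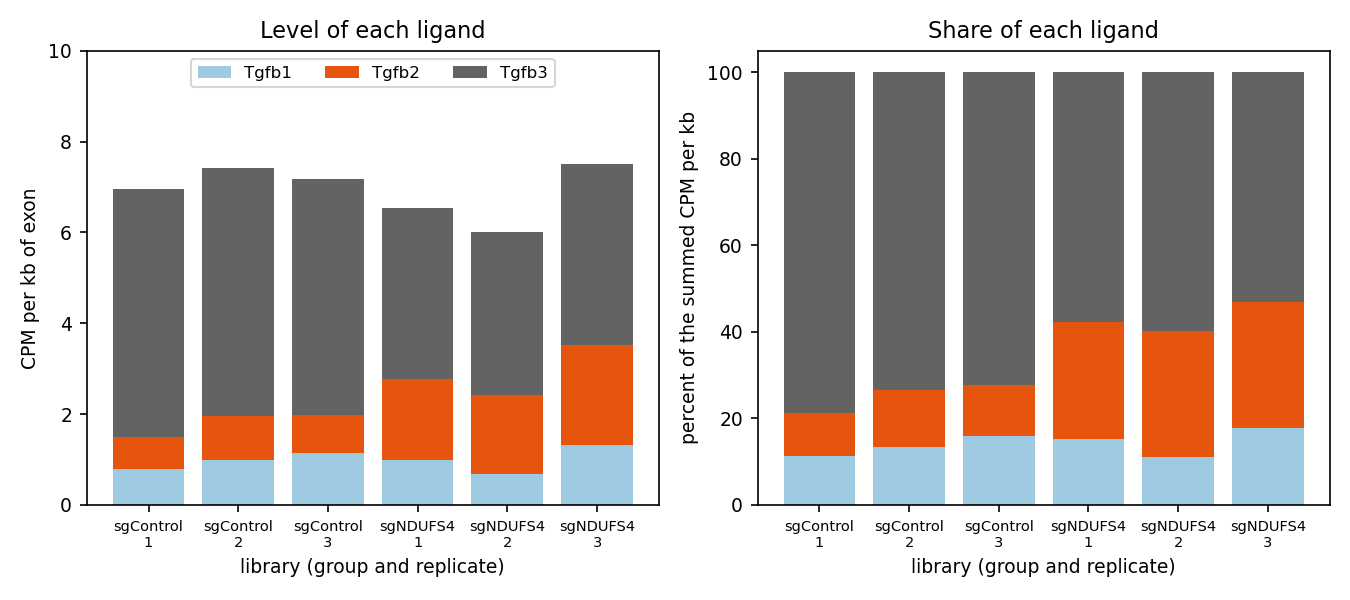
Levels of Tgfb1, Tgfb2 and Tgfb3 in each library as CPM per kb of exon (left) and as a percent of their sum (right), in stacked bars. The Tgfb2 segment is 10.0% to 13.0% of the sum in sgControl and 27.2% to 29.1% in sgNDUFS4, while the height of the whole bar overlaps between the groups.

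Of the receptors, 1 of 3 was called, where 52.0% of all genes tested were. Tgfbr2 (ENSMUSG00000032440.13, chromosome 9, 116084293 to 116175360, minus strand), the type II kinase that binds the ligand first, was at 24.6, 22.9 and 30.5 CPM in sgControl and at 29.1, 34.4 and 33.1 CPM in sgNDUFS4. The highest sgControl library lay above the lowest sgNDUFS4 library. The log2 fold change was 0.31 (SE 0.0932). Its neighbours on chromosome 9 had a median of 0.10. With each gene set against those neighbours the difference was 0.21 and the call was lost, as it was without sgControl replicate 2, at 0.23.

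Tgfbr1 (ENSMUSG00000007613.15, chromosome 4, 47353222 to 47414931, plus strand), the type I kinase that phosphorylates Smad2 and Smad3, was at 8.21, 9.64 and 7.36 CPM in sgControl and at 8.25, 7.78 and 10.6 CPM in sgNDUFS4. The groups overlapped, with a log2 fold change of 0.07 (SE 0.144) that took either sign as libraries were left out. Tgfbr3 (ENSMUSG00000029287.14, chromosome 5, 107106570 to 107289629, minus strand), betaglycan, the co-receptor that presents ligand, was the lowest member, at 2.19, 1.10 and 1.57 CPM in sgControl and at 1.43, 0.920 and 2.08 CPM in sgNDUFS4. With 22 to 54 reads in a library, its log2 fold change of -0.11 has an SE of 0.281, so that a moderate difference was not detectable at this depth. Per kb, Tgfbr2 made up 63.0% to 73.2% of the receptor sum in sgControl and 67.6% to 76.0% in sgNDUFS4.

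Of the 4 Smads, 3 were called higher, where 31.8% of all genes tested were. Of these 3, only Smad3 kept its call in all 16 alternative analyses. Smad3 (ENSMUSG00000032402.12, chromosome 9, 63646767 to 63757994, minus strand), which binds DNA and activates most TGF-beta target genes, was at 23.8, 24.7 and 22.3 CPM in sgControl and at 31.7, 32.0 and 30.2 CPM in sgNDUFS4. The groups were well apart. The means were 23.6 ± 1.249 and 31.3 ± 0.980 CPM (SD, n = 3 each), a ratio of 1.33 and a log2 fold change of 0.40 (SE 0.0789). Against the neighbours' median of 0.11 the difference was 0.29, and the call held.

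Smad2 (ENSMUSG00000024563.16, chromosome 18, 76241580 to 76310963, plus strand), the other substrate of Tgfbr1, overlapped between the groups, at 41.3, 45.6 and 43.1 CPM in sgControl and at 42.5, 46.5 and 50.02 CPM in sgNDUFS4. Its log2 fold change was 0.10 (SE 0.0684). The ratio of Smad3 to Smad2 per kb was 0.916, 0.860 and 0.819 in sgControl and 1.18, 1.09 and 0.956 in sgNDUFS4, so that its ranges did not overlap. Whether the 2 Smads changed differently was not tested.

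Smad4 (ENSMUSG00000024515.13, chromosome 18, 73639009 to 73703780, minus strand), the partner shared by all receptor-regulated Smads, was at 60.7, 57.6 and 57.6 CPM in sgControl and at 62.9, 66.7 and 64.1 CPM in sgNDUFS4. The groups did not overlap, but the ratio of means was 1.10 and the log2 fold change 0.14 (SE 0.0551). Its 50 nearest neighbours had a median of 0.10, which leaves 0.03. The call was lost in 9 of 16 alternatives, among them TMM scaling at 0.08. These 9 also included leaving out sgControl replicate 2 or 3, or sgNDUFS4 replicate 2 or 3, which gave 0.12, 0.12, 0.11 and 0.14.

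Smad7 (ENSMUSG00000025880.11, chromosome 18, 75367529 to 75395935, plus strand), which blocks Tgfbr1 and is itself induced by TGF-beta, was at 7.32, 9.94 and 4.62 CPM in sgControl and at 11.7, 10.7 and 9.10 CPM in sgNDUFS4. The groups overlapped because 1 sgControl library stood above 1 sgNDUFS4 library. The log2 fold change was 0.55 (SE 0.179). It rested in part on sgControl replicate 3, the lowest library, without which it was 0.27 and was not called. It was also not called without sgNDUFS4 replicate 1, at 0.47. The ratio of Smad7 to Smad3 overlapped between the groups, at 0.255 to 0.492 per kb in sgControl and 0.369 to 0.451 in sgNDUFS4.

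**Figure D3:**
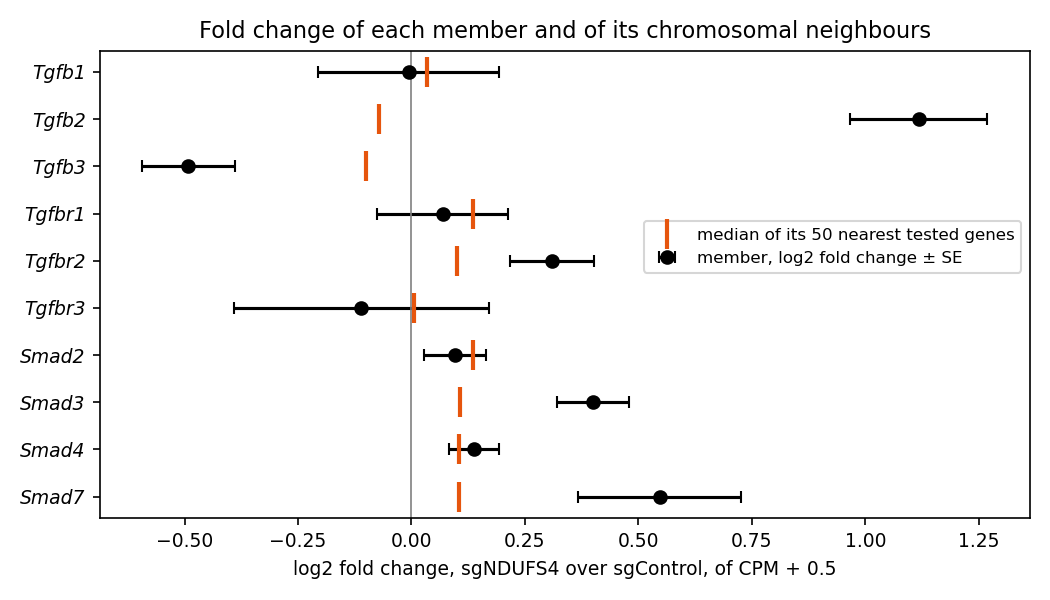
Log2 fold change of each member (black, ± SE of the limma fit) and the median log2 fold change of its 50 nearest tested genes on the same chromosome (orange). Tgfb2 at 1.12 and Tgfb3 at -0.49 lie far from their neighbours at -0.07 and -0.10, while Smad4 at 0.14 lies next to its neighbours at 0.10.

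Per kb of exon, Smad4 was the highest member in each group, at 15.8 ± 0.481 CPM per kb in sgControl and 17.4 ± 0.521 in sgNDUFS4 (SD, n = 3 each). In sgControl it was followed by Tgfb3 at 5.37, Smad2 at 4.93, Smad3 at 4.26, Tgfbr2 at 3.18 and Smad7 at 1.61 CPM per kb. Tgfbr1 at 1.29, Tgfb1 at 0.979, Tgfb2 at 0.832 and Tgfbr3 at 0.248 came last. In this order the ranges of the libraries overlapped between Tgfb3 and Smad2, between Smad7 and Tgfbr1, between Tgfbr1 and Tgfb1, and between Tgfb1 and Tgfb2.

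In sgNDUFS4 the order after Smad4 was Smad3 at 5.65, Smad2 at 5.28, Tgfbr2 at 3.93, Tgfb3 at 3.78, Smad7 at 2.32, Tgfb2 at 1.90, Tgfbr1 at 1.36, Tgfb1 at 0.998 and Tgfbr3 at 0.226 CPM per kb. Tgfb3 stood below Smad2, Smad3 and Tgfbr2 here, and Tgfb2 above Tgfbr1 and Tgfb1. Here the ranges overlapped between Smad3 and Smad2, between Tgfbr2 and Tgfb3, between Smad7 and Tgfb2, and between Tgfbr1 and Tgfb1.

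The tested genes whose profile over the 6 libraries came closest to that of Tgfb2 were Cpm (carboxypeptidase M), Pth1r (the parathyroid hormone receptor) and Ddit4 (an inhibitor of mTORC1 induced by stress). After each gene was centred on its own mean, their log2 values differed from those of Tgfb2 by a root mean square of 0.080, 0.094 and 0.114 over 6 libraries. Ddit4 was at 12.0, 13.5 and 14.9 CPM in sgControl and at 30.3, 29.8 and 36.9 CPM in sgNDUFS4. Likeness over 2 groups mostly reflects a similar fold change.

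Other genes of the TGF-beta superfamily pathways were read from 8 lists by role, which were also drawn up with earlier results known. Of 76 genes tested in these lists, 34 were higher and 17 lower, or 67.1% called, where 52.0% of all genes tested were called, 31.8% higher and 20.3% lower. The median log2 fold change was 0.14 beside 0.06 over all genes tested. With TMM scaling 28 were higher and 22 lower. With regional centring, in which the median change of the nearest 50 tested genes is subtracted, 23 were higher and 16 lower. Without the filter on low values, 35 were higher and 24 lower. Over all genes, 5606 of 11063 were called with TMM scaling, 4971 of 11050 with regional centring and 5664 of 13513 without the filter. Of these calls 49.2%, 48.4% and 59.4% were higher, in place of 61.1% in the main test. The shares of 31.8% and 20.3% belong to the main test. They do not belong to counts after TMM scaling or centring or without the filter, here or below. The lists are described by their counts alone. Adjusted p-values below are from limma, over all 11063 genes.

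Genes that hold, process or release latent ligand changed in either direction, with 4 of 9 tested members higher and 4 lower, where 31.8% and 20.3% of all genes were, and 3 and 3 after regional centring. Thbs1, thrombospondin 1, which activates latent TGF-beta, rose from 21.3, 25.7 and 16.5 CPM to 70.7, 79.3 and 72.8 CPM, a log2 fold change of 1.81 (SE 0.0982, adjusted p = 4e-14). Ltbp4, a latent TGF-beta binding protein, rose from 29.2 ± 0.161 to 61.8 ± 3.37 CPM (SD, n = 3 each, limma adjusted p = 3.5e-13). Furin, the protease that cleaves the ligand precursors, fell by 0.33 on the log2 scale and Itgb5, an integrin subunit that pairs with Itgav, by 0.63. Itgav was at 0.12 and did not pass. Without sgNDUFS4 replicate 3, 2 genes of this list were called higher in place of 4.

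Ltbp1 was below the level tested, at 1.59, 1.23 and 1.12 CPM in sgControl and at 0.116, 0 and 0.231 CPM in sgNDUFS4. It is named here after its values were seen. The 3 genes Ltbp2, Lrrc32 and Itgb6 had no read in any library.

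Of 14 co-receptors and receptor regulators, 6 were higher and 3 lower, where 31.8% and 20.3% of all genes tested were. With TMM scaling, however, 3 were higher and 6 lower, so that this list has no stable direction. Usp11, a deubiquitinase of Tgfbr1, rose from 2.54 ± 0.794 to 7.06 ± 0.927 CPM (SD, n = 3 each, limma adjusted p = 2.5e-06). It lies on chromosome X among genes that were lower, with a neighbours' median of -0.75. Smurf2, a ubiquitin ligase that Smad7 brings to the receptor, had a log2 fold change of 0.27 and 0.05 after regional centring, and Cd109, a co-receptor that dampens signalling, had 0.19 and 0.07. Each lost its call there, and 2 genes of the list were then higher and 2 lower. Usp15 had 0.13, a call lost with TMM scaling at 0.07. Smurf1 did not pass, at 0.06.

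Of the 4 remaining Smads, which serve the BMP branch, 3 were higher, where 31.8% of all genes tested were. Smad1, a substrate of BMP receptors, rose from 15.6 ± 0.529 to 22.9 ± 2.07 CPM (SD, n = 3 each, limma adjusted p = 4.3e-05). Smad6, the inhibitory Smad of that branch, rose from 3.01 ± 0.870 to 5.47 ± 0.324 CPM (SD, n = 3 each, limma adjusted p = 0.0014). Smad5 had a log2 fold change of 0.23, but on chromosome 13, where its neighbours had a median of 0.40, it was at -0.17 after centring and did not pass. It also did not pass with TMM scaling, at 0.18, or without sgControl replicate 1 or sgNDUFS4 replicate 3, at 0.20 and 0.19. Smad9 did not pass, at 0.17.

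Nuclear partners and modifiers of Smads held 7 higher and 5 lower of 15 tested, where 31.8% and 20.3% of all genes were. After regional centring 4 were higher and 4 lower. The largest rises were those of 2 inhibitors that TGF-beta itself induces. Skil, the corepressor SnoN, was at 3.48, 4.14 and 2.69 CPM in sgControl and at 12.0, 10.04 and 12.8 CPM in sgNDUFS4. This gave a limma log2 fold change of 1.63 (SE 0.163, adjusted p = 5.7e-09) and 1.26 after centring. Pmepa1, which keeps Smad2 and Smad3 from the receptor, was at 5.77, 3.81 and 4.35 CPM in sgControl and at 13.9, 13.8 and 12.4 CPM in sgNDUFS4. This gave a limma log2 fold change of 1.45 (SE 0.149, adjusted p = 9.1e-09). For each of these 2 genes the lowest sgNDUFS4 library was above the highest sgControl library. In contrast Ski in this list was called lower, at -0.25 and at -0.15 after centring. Bambi, in the list of co-receptors and receptor regulators, was called lower at -0.37 and at -0.50 after centring. Ski and Bambi are named after their values were seen. The ubiquitin ligases Rnf111 and Trim33 were at 0.41 and 0.38, the latter at 0.08 and without a call after centring on its chromosome 3 neighbours. The coactivator Crebbp did not pass, at 0.04.

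Genes known to be induced through Smad2 and Smad3 were mixed, with 8 of 18 tested higher and 4 lower, where 31.8% and 20.3% of all genes were. The 8 include Acta2, described below. After regional centring 5 were higher and 6 lower. Without the filter on low values 9 were higher and 6 lower. Fn1, fibronectin, rose from 979.0 ± 41.1 to 1739.8 ± 61.0 CPM (SD, n = 3 each, limma adjusted p = 1.1e-17). Acta2, smooth muscle actin, was at 0.348, 0.465 and 0.0449 CPM in sgControl and at 5.50, 4.73 and 3.93 CPM in sgNDUFS4, and reached the test only through the sgNDUFS4 libraries. Its fitted log2 fold change, 2.76, depends on the pseudocount, at 3.845 with 0.1 and 2.158 with 1. In contrast Col4a2, a basement membrane collagen, fell from 214.8 ± 5.60 to 140.1 ± 3.48 CPM (SD, n = 3 each, limma adjusted p = 8.9e-13). Postn did not pass, at -0.07, but was called lower after centring, at -0.47.

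Some target genes lay below the level tested. The members Tgfbi, Cdkn2b and Lox had no read in any library. Timp1, an inhibitor of metalloproteinases, was at 2.49, 0.592 and 0.718 CPM in sgControl, while all 3 sgNDUFS4 libraries lacked reads of it. Tagln, a smooth muscle actin-binding protein, was at 0.448, 0.169 and 0.180 CPM in sgControl and at 1.51, 0.962 and 1.31 CPM in sgNDUFS4. These last 2 genes are named after their values were seen.

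**Figure D4:**
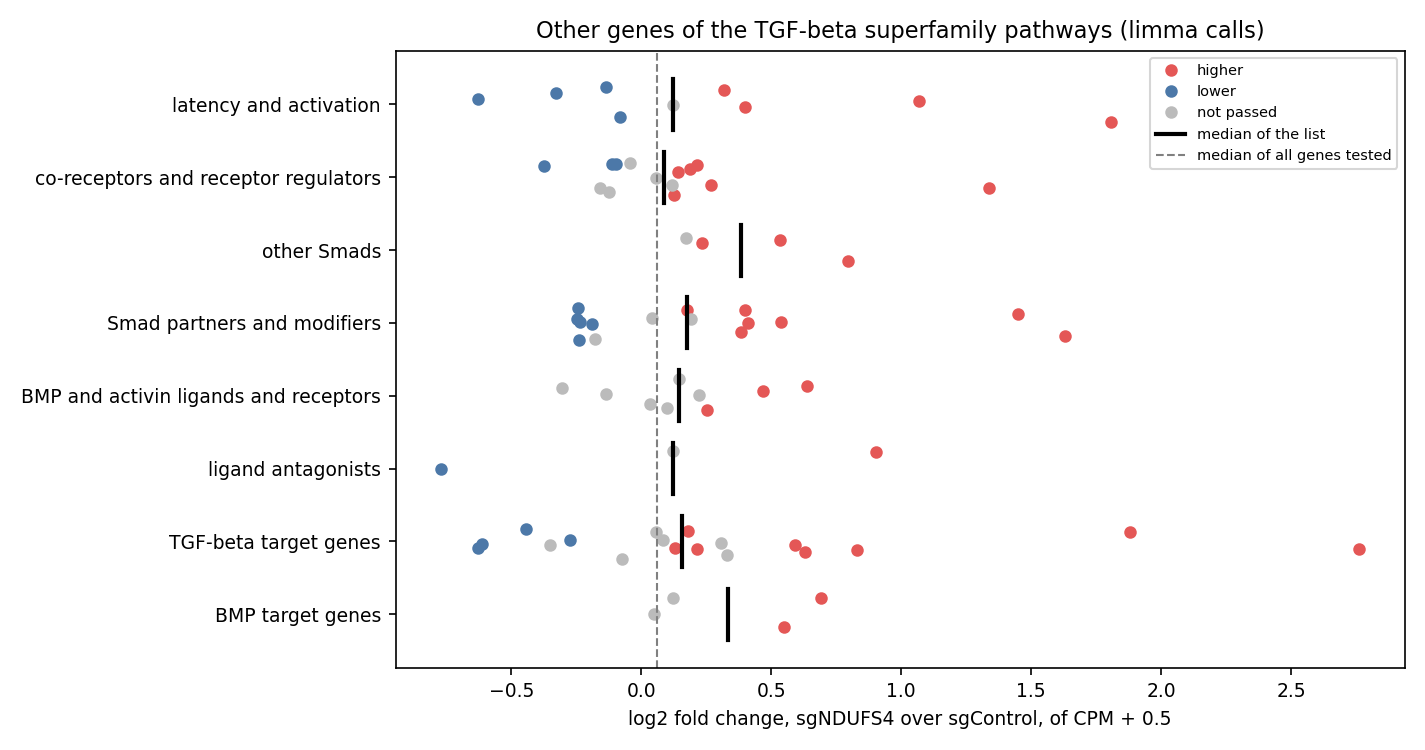
Log2 fold change of each tested gene in the 8 pathway lists (rows), coloured by its limma call, with the median of each list (black line) and of all genes tested (dashed, 0.06). Calls lie on either side of 0 in 5 lists. Thbs1 at 1.81, Skil at 1.63 and Pmepa1 at 1.45 lie far to the right, and the position of Acta2, the point farthest right, depends on the pseudocount.

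In the BMP and activin list 3 of 9 tested genes were higher and 0 lower, where 31.8% and 20.3% of all genes tested were. The share higher was thus near that over all genes. Of the 20 genes in the list, 7 had no read. Bmp1, a metalloproteinase that processes procollagens and can cleave Ltbp1, rose from 53.6 ± 3.10 to 83.5 ± 2.89 CPM (SD, n = 3 each, limma adjusted p = 5.3e-10). Among receptors, the activin receptor Acvr2a and the BMP receptor Bmpr1a had log2 fold changes of 0.47 and 0.25, the latter at 0.14 and without a call after centring and at 0.21, also without a call, when sgNDUFS4 replicate 2 was left out. Gdf11 did not pass, at 0.03. Of 4 tested BMP target genes, Id1 and Atoh8 rose, with log2 fold changes of 0.69 and 0.55, and Id2 did not pass, at 0.05. Below the level tested, and named after their values were seen, Hey1 was at 1.94, 1.56 and 0.449 CPM in sgControl and at 0.232, 0.0836 and 0.154 CPM in sgNDUFS4, and Id4 was at 0.314 to 0.647 CPM in sgControl and at 0.0385 to 0.0836 CPM in sgNDUFS4. Without the filter on low values 2 BMP target genes were called lower in place of 0. Of 12 secreted antagonists 3 could be tested. Fstl1 rose from 2.15 ± 0.434 to 4.46 ± 0.922 CPM and Cer1 fell from 2.75 ± 0.435 to 1.43 ± 0.443 CPM (SD, n = 3 each, limma adjusted p = 0.00088 and 0.01). Without sgNDUFS4 replicate 2 the call of Cer1 was lost, at -0.60. Twsg1 did not pass, at 0.12.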

How the data were processed

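The authors deposited a table of CPM per gene for 6 libraries. The submitters' processing notes list HISAT2 and the build GRCm38; the sources used here give no counting tool, annotation or filter. Sequencing was paired-end without strand, per the labels' protocols. Each value was a whole multiple of the smallest value of its library (99.98% to 100% of values above 0, within 0.01), which gave read numbers. The main test was limma 3.58.1 (R 4.3.3, two-sided) on log2(CPM + 0.5), with its prior variance following the mean level. Genes averaging 1 CPM or more over the 6 libraries entered it, and a Benjamini-Hochberg adjusted p under 0.05 was the call. It was tested on simulated data in which few genes changed, evenly up and down, all averaging 5 CPM or more. That run does not cover lower genes or changes as many as those called here. On the recovered reads edgeR 4.0.16 called 5583 genes and DESeq2 1.42.0 called 5370. Fold changes on the log2(CPM + 0.5) scale understate the change of low genes.

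Positions and exon lengths came from GENCODE M21 (GRCm38), matched by symbol for 22262 of 22535 rows. In regional centring, the median log2 fold change of the 50 nearest tested neighbours was subtracted. Promoter windows are from RefSeq (GRCm38.p6). Other alternatives were the pseudocount, the filter, TMM scaling, the variance model, a replicate block and each library left out.

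The members and lists were chosen with earlier results of these data known. The genes named are the 10 members, Ndufs4, and of each list up to 4 called genes with the smallest p-value and 1 tested gene with the largest p-value that did not pass. A gene that this rule also names is not reported here. Likeness to the member with the largest fold change was taken over genes outside the lists, without predicted gene models. The deposited columns of the authors' own fold changes and p-values were not used here.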

Additional observations from a re-analysis of the deposited data

How the results depend on the processing

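Tgfb2, Tgfb3 and Smad3 kept their direction and call in all 16 alternatives, with log2 fold changes of 1.01 to 1.22, -0.57 to -0.39 and 0.29 to 0.43. Of the members, 3 were called higher with DESeq2 and with regional centring, and 2 higher and 3 in all without the mean-variance trend. Over all genes, 5370 of 11063 were called with DESeq2, 4971 of 11050 with regional centring and 4924 of 11063 without the trend. Of these calls 48.5%, 48.4% and 61.8% were higher, in place of 61.1% in the main test. Leaving out 1 library gave 3 to 5 members called higher and 4 to 6 called in all. Over all genes it gave 3024 to 3388 called higher and 5058 to 5581 called in all, in place of 3514 and 5755. Smad4 was not called with DESeq2 (0.078), TMM scaling (0.078), edgeR (0.078), regional centring (0.033) or without the trend (0.14), and lay between 0.11 and 0.16 when a library was left out. Smad7 was not called with DESeq2 (0.46), without the filter (0.55) or without the trend (0.55), and lay between 0.27 and 0.79 when one was left out. Tgfbr2 was not called with regional centring (0.21) or without the trend (0.31), and lay between 0.23 and 0.43 when one was left out. Regional centring turned Tgfbr1 (-0.066) and Smad2 (-0.040), neither called. With a library left out Tgfb1 ranged from -0.22 to 0.23, Tgfbr1 from -0.057 to 0.17 and Tgfbr3 from -0.32 to 0.11. Tgfb1 and Tgfbr3 did not reach a filter of 5 CPM.

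Among other genes, sign changes of differences that were not called occurred for Crebbp with DESeq2 (-0.02049), TMM (-0.01666) and edgeR (-0.02003), for Gdf11 (-0.0215, -0.02398 and -0.02056), for Id2 (-0.012 in each) and for Smurf1 (-0.002275, -0.001321 and -0.001947). With regional centring Smurf1 (-0.079) and Smad9 (-0.22), neither called, changed sign. Smad5, called higher in the main test at 0.23, was then at -0.17 and did not pass. With a library left out Crebbp ranged from -0.02378 to 0.08039 and Gdf11 from -0.07003 to 0.09819. The cause of these changes was not tested. Whether the replicate numbers pair the libraries was not settled. Deviations from the group means correlated weakly, at 0.056, 0.012 and 0.097 for equal numbers and -0.087 to 0.035 for unequal ones. Each sgControl library correlated most with the sgNDUFS4 library of its own number. With a replicate block 5941 genes in all and 53 in the pathway lists were called, and the same 6 members. Depth limits Tgfbr3 most, at 22 to 54 reads.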
